A study of Mus musculus with 12 samples.

Results

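Reg3b, Reg3g, Reg3a, Reg1, Reg4, Lypd8, Ang4, Itln1 and Lyz1 are grouped here as genes for antimicrobial lectins, peptides and related proteins of the gut lining. They were chosen by name and make up 9 of the 53801 genes in the count table. Their values were examined mainly in the 6 colon libraries, where all 9 are listed, and also in the 6 blood libraries of the same study, where the table of normalized values lists 2 of them, Lypd8 and Lyz1. The libraries came from male C57BL/6 mice bought at 8 weeks of age, with no transgene or deletion. By the study's methods, colitis was induced with 1.5% dextran sulfate sodium (DSS) in the drinking water for 7 days, followed by plain water. DSS is a sulfated sugar polymer that injures the colonic epithelium and is used as a model of ulcerative colitis (UC). The disease labels, which name no treatment, place 3 mice (numbers 1, 2 and 4) in the UC group. They place 3 others (7, 8 and 9) in the control group, which by the methods drank the same water with no DSS, and both groups were killed on day 8. Per the study's methods the 6 sequenced mice were picked from a larger cohort by their disease activity score, and the stretch of the colon that was sampled is not given in the sources used here.

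The intestinal epithelium keeps bacteria away from its surface with mucus and with secreted proteins that bind or kill them. Reg3b and Reg3g are C-type lectins that kill bacteria after binding their cell wall. Their genes are known to respond to interleukin-22, a cytokine of lymphoid cells that acts on an epithelial receptor and activates the transcription factor Stat3, and to signals from Toll-like receptors. Lypd8 is a membrane-anchored glycoprotein of colonocytes that binds flagella and holds motile bacteria off the surface, Ang4 is a ribonuclease of the angiogenin family made by Paneth and goblet cells, Itln1 (intelectin) is a lectin for microbial sugars, and Lyz1 is the lysozyme of Paneth cells. In bulk tissue, fewer cells of a type and less RNA per cell cannot be told apart.

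Values are counts per gene and, for comparisons between libraries of one tissue, normalized counts, the deposited values that the authors scaled by a single factor for each library. The total count ran from 69181049 to 103662306 in the colon libraries and from 80867247 to 142536804 in blood, and the 3 colon libraries labelled UC had the 3 highest totals. Genes of the non-coding 7SL RNA took 35.9% (mouse 9) to 65.4% (mouse 8) of the blood counts. In colon they took 4.90% (mouse 2) to 6.50% (mouse 7). The blood totals therefore overstate the depth left for other genes. The tissue is stated in a pair of label fields that contradict each other, and the groups follow the tissue characteristic. The red cell gene Alas2 had 4678666 to 7108744 counts in the blood libraries so grouped, and at most 3820 normalized counts in colon. The epithelial gene Krt8 had at least 303492 normalized counts in each colon library and at most 88 counts in any blood library. Both genes thus go with the field that was followed. Inflammatory genes go against the disease labels in part. Among colon libraries labelled UC, the neutrophil gene S100a8 stood at 5370 normalized counts (mouse 1), 33.1 (mouse 2) and 22.3 (mouse 4), and among those labelled control at 1888 (mouse 7), 75.6 (mouse 8) and 13337 (mouse 9). The deposited tables of normalized values list mice 1, 7 and 9 ahead of mice 2, 4 and 8, and no group was taken from that order. The disease labels of some libraries may thus be wrong. Which libraries this concerns was not tested, and the doubt bears on each comparison of labelled groups below. The disease state of a library is given as its label throughout, with the mouse number, and does not establish whether that mouse received DSS.

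The stretches just before the starts of 4 of these genes are shown because Reg3b, Reg3g and Ang4 spanned the widest ranges of level among the members counted in at least 5 colon libraries and Lypd8 a narrow one. All 9 genes matched RefSeq promoter entries (GRCm38.p6), and the sequences are the bases before the start, 5′ to 3′ on the gene's strand, without bases that the GENCODE annotation places in an exon. Capitals mark TTCNNNGAA, the spaced half-sites that STAT factors are known to bind, and TATAAA, the TATA box, both searched on both strands.
Reg3b, chr6:78370707-78370860, + strand: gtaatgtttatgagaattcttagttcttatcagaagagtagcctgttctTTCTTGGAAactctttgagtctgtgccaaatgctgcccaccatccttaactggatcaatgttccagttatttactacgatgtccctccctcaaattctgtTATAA
Reg3g, chr6:78468875-78469124, - strand: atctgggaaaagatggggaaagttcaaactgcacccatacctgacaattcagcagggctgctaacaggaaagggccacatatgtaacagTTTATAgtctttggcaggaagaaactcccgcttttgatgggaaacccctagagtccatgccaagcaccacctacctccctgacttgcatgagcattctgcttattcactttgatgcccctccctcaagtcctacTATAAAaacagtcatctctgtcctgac
Ang4, chr14:51773591-51773840, - strand: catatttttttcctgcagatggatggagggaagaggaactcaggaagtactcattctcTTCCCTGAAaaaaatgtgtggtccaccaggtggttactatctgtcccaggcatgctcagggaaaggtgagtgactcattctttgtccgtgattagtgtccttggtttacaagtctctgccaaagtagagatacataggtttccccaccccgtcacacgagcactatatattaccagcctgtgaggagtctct
Lypd8, chr11:58378782-58379031, + strand: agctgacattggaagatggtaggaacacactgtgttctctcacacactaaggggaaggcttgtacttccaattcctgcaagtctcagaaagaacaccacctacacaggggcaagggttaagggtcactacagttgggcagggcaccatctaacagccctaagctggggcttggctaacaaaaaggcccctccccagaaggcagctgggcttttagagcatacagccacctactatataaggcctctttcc
Within 250 bases before the start, TTCNNNGAA was present in Reg3b, as TTCTTGGAA from base -129, and in Ang4, as TTCCCTGAA from base -192, and in none of the other 7 genes. In the whole set of 32851 RefSeq windows of that length, 7.02% held it. TATAAA was present in Reg3b (from base -29, its last letter lying just past the printed stretch), in Reg3g (from bases -27 and, on the other strand, -161) and in Reg1 (from base -30), against 12.4% of all windows. Another motif, CCAAT, was present in the windows of Reg3a, Reg4, Lypd8 and Lyz1, against 33.8% of all. The windows of Reg3b and Reg3g were the most alike of the 36 pairs compared, with 173 of 253 aligned columns identical (68.4%), and the next pair, Reg3a and Itln1, had 50.9%. These matches describe letters in the windows.

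Reg3b, on chromosome 6 (78370657 to 78373466, + strand, GRCm38), had the widest span of the 9 genes. In the colon libraries labelled UC it reached 985376 normalized counts (mouse 1), 7.84 (mouse 2) and 0 (mouse 4), and in those labelled control 108204 (mouse 7), 17.6 (mouse 8) and 5504 (mouse 9). These rest on 1040340, 9 and 0 counts and on 85565, 14 and 6117 counts. The libraries of mice 1, 7 and 9 were high and those of mice 2, 4 and 8 at or near 0, so each labelled group held both and the groups overlapped. Reg3b was the 4th most abundant gene of the colon library of mouse 1, where it took 1.12% of all counts, against 0.124% in mouse 7 and 0.00708% in mouse 9. The level in mouse 1 was 9.11-fold that in mouse 7, and that in mouse 7 was 19.7-fold that in mouse 9. Against mouse 4, with no count, mouse 1 was at least 398205-fold higher, taking 3 counts per library as the limit that a count of 0 allows. Such limits cover counting error only.

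Reg3g, encoded on the same chromosome (78466269 to 78468872, - strand), is the lectin known for binding Gram-positive bacteria. Under the label UC it reached 98382 normalized counts (mouse 1), 7.84 (mouse 2) and 31.3 (mouse 4), and under the label control 16424 (mouse 7), 0 (mouse 8) and 1471 (mouse 9). Mice 1, 7 and 9 again held the 3 highest values, in the same order as for Reg3b. Mouse 1 was 5.99-fold above mouse 7, and mouse 7 was 11.2-fold above mouse 9, both narrower steps than for Reg3b. The count ratio of Reg3b to Reg3g was 10.02 in mouse 1, 6.59 in mouse 7 and 3.74 in mouse 9, so Reg3b made up a larger part of the pair in the libraries where both were more abundant.

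Reg3a (78380709 to 78383827, + strand) and Reg1 (78422711 to 78428667, + strand) lie between Reg3b and Reg3g on chromosome 6. Reg3a is another lectin of this cluster, and Reg1 encodes a secreted protein best known from the pancreas, where it is called lithostathine. Reg3a was counted in mouse 1 (219 normalized counts, from 231 counts) and mouse 7 (41.7, from 33 counts), and had no count in the other 4 colon libraries. Reg1 was counted in the same libraries, with 46.4 in mouse 1 (49 counts) and 84.7 in mouse 7 (67 counts), and had no count in mice 2, 4, 8 and 9. Mouse 9, where Reg3b and Reg3g were well counted, thus had no count of either. Over the highest floor of 3 counts among the libraries without a count, Reg3a was at least 57.9-fold higher in mouse 1 and at least 11.0-fold higher in mouse 7, and Reg1 was at least 12.3-fold and 22.4-fold higher.

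**Figure D1:**
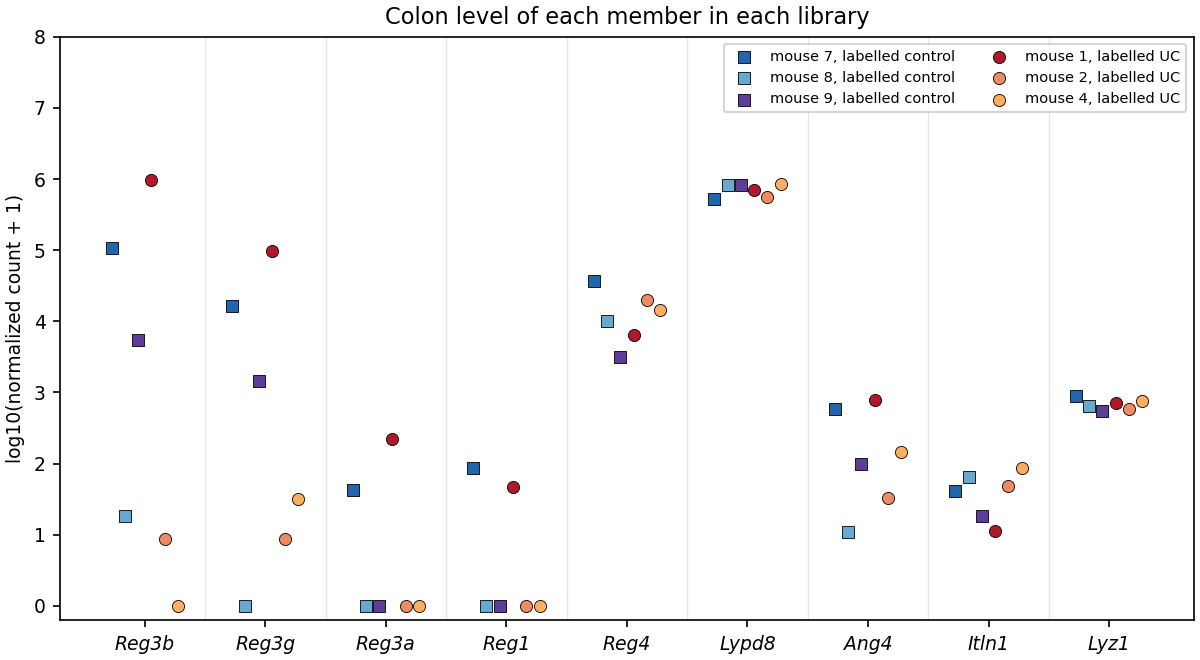
Level of each of the 9 genes in each colon library, as log10 of the normalized count plus 1 on the vertical axis, with circles for mice 1, 2 and 4 (labelled UC) and squares for mice 7, 8 and 9 (labelled control). Reg3b spans from 0 to 985376 normalized counts, whereas Lypd8 stays between 516419 and 853043 and Lyz1 between 545 and 894.

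Lypd8 (chromosome 11, 58379043 to 58390728, + strand) was the most abundant of the 9 genes in 5 of the 6 colon libraries, the exception being mouse 1, where Reg3b exceeded it. Its normalized count was 695560 in mouse 1, 555050 in mouse 2 and 853043 in mouse 4 (labelled UC, 701218 ± 149077, SD, n = 3), against 516419 in mouse 7, 838053 in mouse 8 and 837981 in mouse 9 (labelled control, 730818 ± 185675, SD, n = 3). The labelled groups overlapped, and the highest library was 1.65 times the lowest. It ranked between 3rd and 8th among all genes in each library. Reg4 (chromosome 3, 98222156 to 98236748, + strand), a member of the Reg family outside the chromosome 6 cluster that marks secretory cells of the colonic crypt, measured 6523 (mouse 1), 19676 (mouse 2) and 14333 (mouse 4) normalized counts under the label UC and 37128 (mouse 7), 10111 (mouse 8) and 3177 (mouse 9) under the label control. Its highest level was 11.7 times its lowest, with both extremes in libraries labelled control. Mice 1, 7 and 9, the 3 highest for Reg3b, were here the 5th, the 1st and the 6th.

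Ang4 (chromosome 14, 51763878 to 51773590, - strand) measured 777 (mouse 1), 32.2 (mouse 2) and 142.7 (mouse 4) normalized counts under the label UC and 585 (mouse 7), 10.1 (mouse 8) and 98.1 (mouse 9) under the label control. The 2 highest libraries were again mice 1 and 7, one of each label, and mouse 4 came before mouse 9. The span was 77.0-fold. Itln1 (chromosome 1, 171518122 to 171535294, - strand) had another order, with 10.4 (mouse 1), 47.9 (mouse 2) and 85.0 (mouse 4) normalized counts against 40.5 (mouse 7), 63.0 (mouse 8) and 17.1 (mouse 9), so that mice 1 and 9 were lowest. Lyz1 (chromosome 10, 117287797 to 117292868, - strand) measured 703 (mouse 1), 590 (mouse 2) and 764 (mouse 4) against 894 (mouse 7), 645 (mouse 8) and 545 (mouse 9), a span of 1.64-fold and a coefficient of variation of 18.4% over the 6 libraries, near the 21.2% of Lypd8.

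Levels of different genes were compared as normalized counts per kilobase of exon. By the median of the 6 colon libraries the order was Lypd8 (597174 per kilobase, range 402195 to 664364), Reg4 (11971, 3112 to 36365), Reg3b (2418, 0 to 862852), Lyz1 (534, 432 to 708), Reg3g (355, 0 to 46538), Ang4 (169.8, 14.2 to 1095) and Itln1 (38.7, 9.13 to 74.5), with Reg3a and Reg1 at a median of 0. Lypd8 lay above the highest Reg4 value in each library. From Reg4 downward the ranges of neighbours in this order overlapped, so their order is not beyond the spread between libraries. Together the 9 genes took 2.02% of all counts in mouse 1, 0.706% in mouse 2 and 1.02% in mouse 4, and 0.777% in mouse 7, 0.909% in mouse 8 and 1.09% in mouse 9. Lypd8 accounted for 38.9% of these counts in mouse 1, 76.0% in mouse 7 and between 96.5% and 98.7% in the other 4 libraries.

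**Figure D2:**
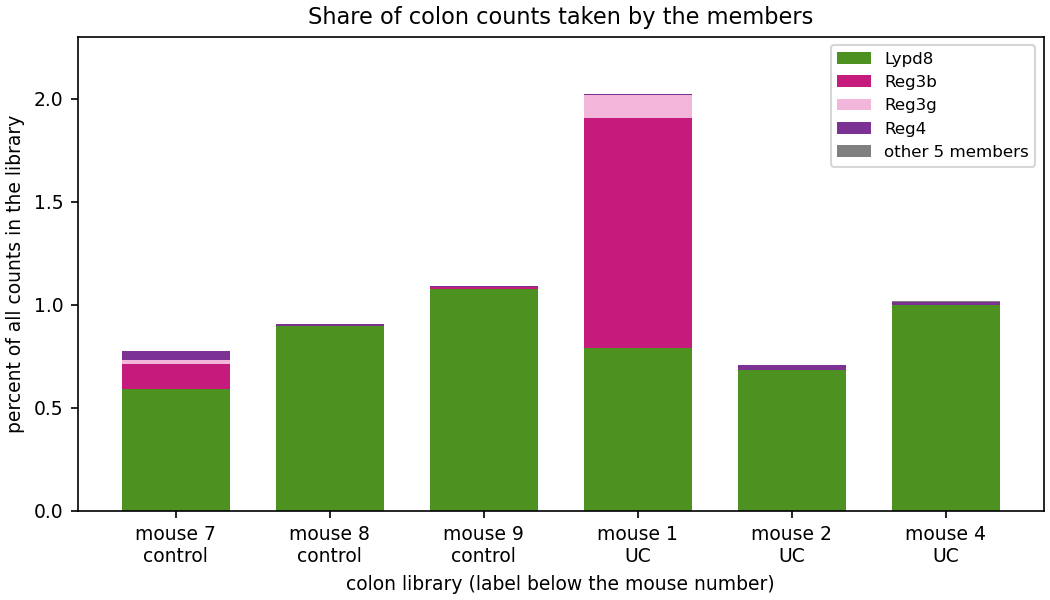
Share of all counts of each colon library taken by the 9 genes, in percent, stacked by gene, with the label below each mouse number. The bar of mouse 1 reaches 2.02%, of which Reg3b makes up 55.1% and Lypd8 38.9%, whereas Lypd8 fills most of the other 5 bars.

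The comparison of libraries labelled UC with those labelled control was designed to ask whether DSS changed these genes in the colon. Since the labels are in doubt, it compares the libraries as labelled and does not show whether DSS had an effect. With edgeR's quasi-likelihood test, 7 of the 9 genes passed the filter on low counts, and Reg3a and Reg1, counted in 2 libraries each, did not. None of the 7 was significantly differentially expressed (SDE, defined as an adjusted p up to 0.05 with a log2FC beyond 1 in either direction), where 0.00450% of the 22238 genes tested were. None had an unadjusted p under 0.05, against 1.41% of all genes. Limma-voom also called 0 of them. So did DESeq2, but it gave no adjusted p for Reg3b and Reg3g and thus could not call those. For 0 of the 9 genes were the labelled groups apart, a state found for 5.41% of the genes tested. The 4 genes with a higher fitted level in the libraries labelled UC were Reg3b, Reg3g, Ang4 and Itln1, and the 3 with a lower one were Reg4, Lypd8 and Lyz1, with a median log2FC of 0.23 over the 7 and of -0.01 over all genes.

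For Reg3b the log2FC was 3.09 with an SE of 3.86 (edgeR, adjusted p 0.9999), and its 95% interval ran from -6.19 to 12.37. Its sign changed with mouse 1. Without that library the log2FC was -13.24, and without mouse 7 it was 6.91. Reg3g behaved alike, with a log2FC of 2.44 (SE 3.21), which was -8.26 without mouse 1 and 5.49 without mouse 7. For Lypd8 and Lyz1 the same test gave narrow intervals, which follow from their small spread over all 6 libraries, whatever the labels. These intervals do not show that DSS left the 2 genes unchanged. Lypd8 had a log2FC of -0.07 (SE 0.298, 95% interval -0.79 to 0.64) and Lyz1 one of -0.04 (SE 0.266, interval -0.68 to 0.60), so a doubling in either direction lay outside both. Reg4 had a log2FC of -0.34 (SE 0.862), Ang4 of 0.44 (SE 1.50) and Itln1 of 0.23 (SE 0.826), with intervals that reached past a log2FC of 1 on both sides. Leaving out mouse 7 moved Reg4 to 1.00 and Ang4 to 2.54, and leaving out mouse 1 moved Ang4 to -1.42. The study's methods say that mice were housed in groups at random, without stating which of them shared a cage. The p-values measure the spread between these 6 mice.

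**Figure D3:**
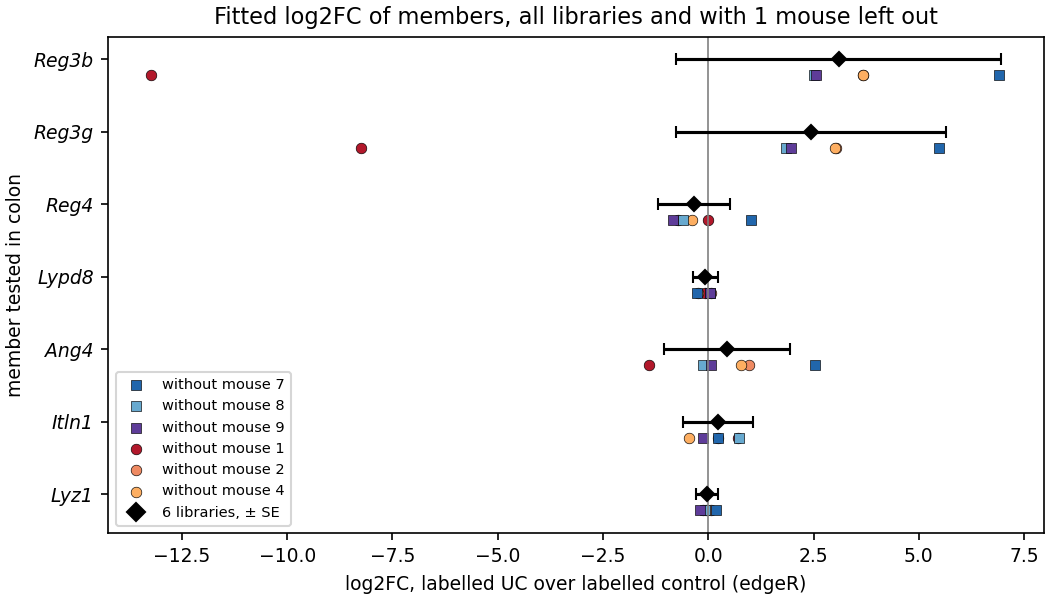
Fitted log2FC of the 7 tested genes in colon, libraries labelled UC over those labelled control, from edgeR. Diamonds with bars are the fit of 6 libraries with its SE, and the smaller points are the fits with 1 mouse left out, which run from -13.24 to 6.91 for Reg3b and from -0.27 to 0.07 for Lypd8.

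In a list of genes around interleukin-22 and Toll-like receptors, 31 genes were tested and 0 were SDE. The list also holds inhibitors such as Socs3, so its summed directions do not give the state of an inducing pathway. In it 9 genes were higher and 22 lower in the libraries labelled UC, with a median log2FC of -0.21. An unadjusted p under 0.05 was found for 1 (Il17f, the interleukin-17 family cytokine, log2FC -1.64, edgeR adjusted p 0.9999). The members of this list with the highest mean were Stat3, Jak1, the kinase that activates it, and Il18. Stat3 measured 17321 (mouse 1), 12424 (mouse 2) and 11844 (mouse 4) normalized counts, and 18471 (mouse 7), 10343 (mouse 8) and 21866 (mouse 9), so that mice 9, 7 and 1 were highest, while Jak1 stayed between 13980 and 16282 in the 6 libraries. Il18 stood lowest in mice 1 and 7, with 4663 and 3959 normalized counts against 8585 or more in the other 4.

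Among genes of the list named after their values were seen, the ligand Il22 had 62.5 normalized counts in mouse 1, 136.6 in mouse 7 and 150.3 in mouse 9, and no count in mice 2, 4 and 8. The 3 libraries with Il22 were thus the 3 with the most Reg3b and Reg3g, but in another order, since mouse 9 had the highest Il22 and the lowest Reg3b of them. Its receptor chain Il22ra1 was counted in each library, between 3924 and 7954. Socs3, a feedback inhibitor induced by Stat3, had 6641 normalized counts in mouse 1, 11260 in mouse 7 and 14614 in mouse 9, and between 360 and 503 in the other 3. Il1b had 4138, 1361 and 13430 in mice 1, 7 and 9 and between 20.6 and 125 elsewhere, and Il6 had 314, 173 and 1477 and no count elsewhere. For Socs3, Il1b and Il6 as for Il22, mouse 9 was the highest library.

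Of 36 other epithelial antimicrobial genes, 27 were tested and 0 were SDE. In the libraries labelled UC 8 were higher and 19 lower, with a median log2FC of -0.30, and 1 had an unadjusted p under 0.05 (Pla2g2a, a secreted phospholipase that degrades bacterial membranes, log2FC -5.06, edgeR adjusted p 0.9999, with 3898 normalized counts in mouse 9 and at most 470 in the other 5 libraries). The 3 most abundant were Dmbt1, a bacteria-binding scavenger receptor-like protein, Muc2, the gel-forming mucin of goblet cells, and Sprr2a2, a small proline-rich antimicrobial protein. Muc2 had 1019390 normalized counts in mouse 1 and 917317 in mouse 7, against 151064 to 242781 in the other 4, the same pair of libraries that held the most Reg3b. Dmbt1 was highest in mice 1 (1669620), 9 (1432500) and 7 (1119810), and at most 605079 in mice 2, 4 and 8. Sprr2a2 ranged from 165939 to 389082 with mouse 2 lowest, and did not follow that order.

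Further genes of this list, named after their values were seen, fell on either side. Retnlb, an antimicrobial resistin-like protein of goblet cells, had 9118, 6411 and 4758 normalized counts in mice 1, 7 and 9, 11.5 in mouse 4 and 0 in mice 2 and 8. Saa3, a serum amyloid protein, had 4701, 3256 and 26328 in mice 1, 7 and 9 and 0 in the other 3. Mptx1, a pentraxin made by intestinal epithelium, ran the other way, with 93220, 90767 and 51455 in mice 2, 4 and 8 and at most 1164 in mice 1, 7 and 9. Mptx2, its Paneth cell relative, had 304, 267 and 131 in mice 2, 4 and 8 and 0 in mice 1, 7 and 9. The direction relative to Reg3b therefore differed between antimicrobial genes of the same libraries.

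**Figure D4:**
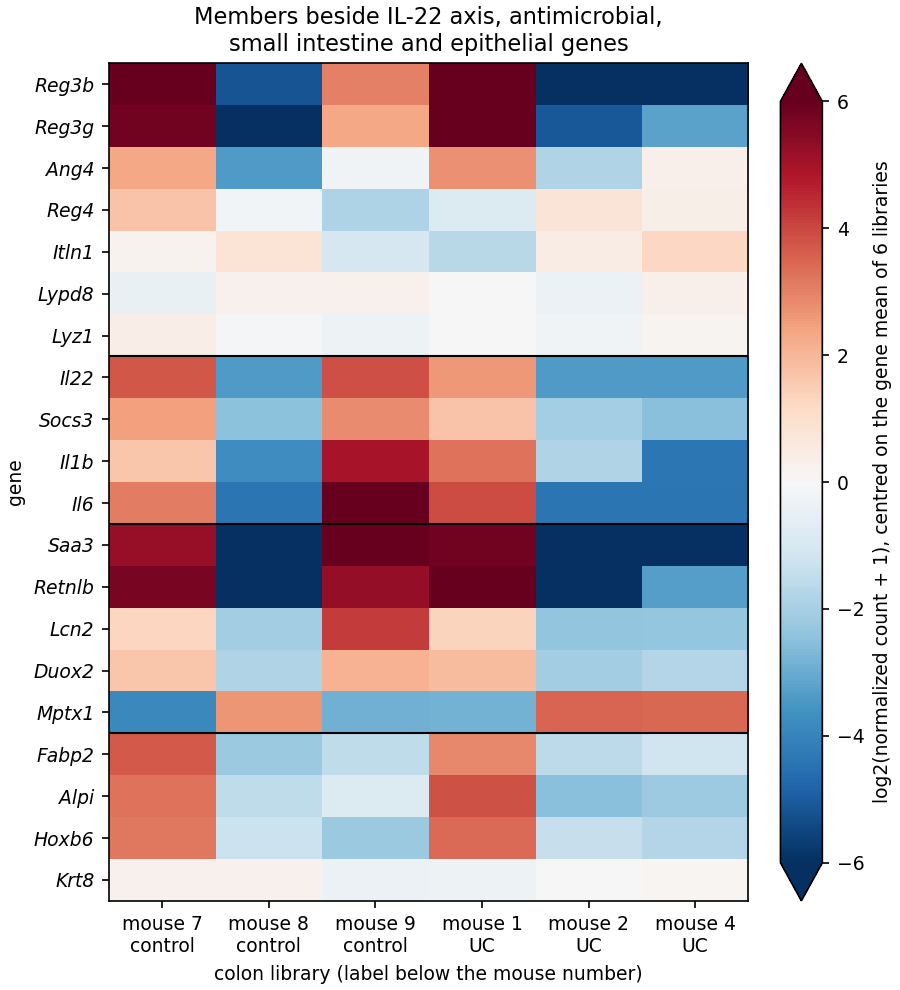
Colon levels of 7 of the 9 genes (top block) beside genes of the interleukin-22 axis, other antimicrobial genes, and small intestine, Hox and epithelial genes, as log2 of the normalized count plus 1 centred on each gene's mean over the 6 libraries and drawn up to 6 in either direction. Reg3b, Reg3g, Retnlb and Il22 are above their mean in mice 1, 7 and 9 and below it in mice 2, 4 and 8, Mptx1 is the reverse, and Lypd8 and Krt8 stay near 0.

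The epithelium itself was present in each colon library. Its 10 listed markers were all found, with summed normalized counts of 1034890 to 1222740 in the libraries labelled UC and 988350 to 1382480 in those labelled control, and Krt8, a keratin of simple epithelia, ranged from 303492 to 463694. Reg3b in contrast spanned at least 398205-fold in the same libraries. Absorptive colonocyte markers, for the cells that display Lypd8, had a median log2FC of 0.20 (9 tested, 6 higher and 3 lower in the libraries labelled UC, 0 SDE). Goblet cell markers had one of 0.24 (10 tested, 7 higher and 3 lower, 0 SDE), and that list contains Ang4. Neutrophil markers (11 of 12 counted, Stfa3 at 0) summed to 7531 to 34413 in the libraries labelled UC and 17813 to 67319 in those labelled control. The sums were highest in mice 9, 1 and 7. Ly6g made up most of the sum in mice 1, 2, 4, 7 and 8, with 21494, 7350, 16355, 20824 and 17455 normalized counts, and thus narrows the range of the sums. In mouse 9 it had 25479 of the 67319. S100a9, the next most abundant of the list, had 5434, 2137 and 18061 in mice 1, 7 and 9 and at most 130 elsewhere. The part of neutrophils in the Reg3b and Reg3g values was not tested.

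Small intestine markers moved with Reg3a, Reg1 and Ang4 in part. The 10 listed genes summed to 16405 normalized counts in mouse 1 and 24151 in mouse 7, against 1437 to 1936 in the other 4, and none was at 0 in all 6. Most of the excess in mice 1 and 7 lay in Fabp2, the intestinal fatty acid-binding protein, with 12105 and 21076 against 350 to 710 in the other 4. Alpi, intestinal alkaline phosphatase, had 1881 and 1279 in these libraries against at most 74.7, and Anpep, an aminopeptidase, ranged from 500 to 882 with no such difference. Sis, the sucrase-isomaltase of small intestinal enterocytes, had 1279 in mouse 1 and 346 in mouse 7 against at most 18.3 in the other 4, whereas Apoa4, an apolipoprotein, had at most 16.5 and Fabp1, the liver-type fatty acid-binding protein, at most 15.2 in the 6 colon libraries. The part of small intestinal RNA in the Reg3a, Reg1, Ang4 and Reg3b values was not tested.

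Patterns were compared with those of the 15842 genes with a mean of at least 100 normalized counts in colon. Among these, the 3 most similar to each gene were found. They had the smallest root mean square difference of centred log2 levels over the 6 colon libraries. For Reg3b they were Sptssb (2.55), Abca12 (2.60) and Reg3g (3.07), and for Reg3g they were Sptssb (1.52), Nts (1.70) and Retnlb (1.76). Sptssb, a subunit of the enzyme that starts sphingolipid synthesis, had 20021, 14270 and 2729 normalized counts in mice 1, 7 and 9 and at most 4.12 elsewhere, whereas Abca12, a lipid transporter, was at 24321 in mouse 1, 24051 in mouse 7 and 25.2 in mouse 9. Reg3b had the most distant nearest gene of the 9. It also had the widest span, and this difference is not scaled to a gene's span and grows with it.

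The nearest genes of the rarer genes lay at smaller differences. Reg3a and Reg1, with no count in 4 colon libraries, had smaller ranges, which lowers this measure. Reg1 lay closest to Cyp2c65 (0.56), Fabp2 (0.60) and Hoxb6 (0.66), which were all high in mice 1 and 7 alone. Hoxb6, a homeobox gene whose expression depends on position along the body axis, had 3236 and 2723 normalized counts in mice 1 and 7 and 63.9 to 125 in the other 4, and the part of the position sampled along the gut in these values was not tested. Reg3a lay closest to Cyp3a44 (0.69), Prkg2 (0.71) and Iapp (0.80), and Ang4 to Gabre (0.87), Il18r1 (0.91) and Ntrk2 (0.94). Itln1 lay closest to Inpp4b (0.28), Gm9917 (0.30) and Trpm6 (0.31), a magnesium channel whose lowest libraries, mouse 1 (4621 normalized counts) and mouse 9 (6680), were also the lowest for Itln1. Reg4 lay closest to Gal3st2c (0.43), Flnc (0.55) and Gsdmc (0.58). For Lypd8 and Lyz1, which varied little, the nearest genes differed by at most 0.08. These are descriptions over 6 libraries.

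The relatives of the 9 genes were mostly silent in colon. Reg2, Reg3d, Ang2, Ang5 and Ang6 had no count in any of the 6 libraries. Ang, the angiogenin of many tissues, ranged from 402 (mouse 9) to 1207 (mouse 1) normalized counts, a narrower span than Ang4. Lyz2, the lysozyme of macrophages and other myeloid cells, ranged from 7086 (mouse 8) to 28320 (mouse 9), and was thus highest in the library where Lyz1 was lowest.

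Lyz1 is used as a Paneth cell marker, and Paneth cells are not normally found in mouse colon, so the list of 14 Paneth cell markers was examined. Defa5, Defa21, Defa26 and Defa29 had no count in any colon library, and the other Defa genes, which encode the alpha-defensins of Paneth cells, had at most 21.4 normalized counts. The list summed to 857 to 1034 in the libraries labelled UC and 658 to 922 in those labelled control, of which Lyz1 made up most. Lyz1 and Lyz2 are near copies, with 195 of the 1214 distinct stretches of 50 bases in Lyz1 transcripts (16.1%) and 24 of 1164 stretches of 100 bases (2.06%) also present in Lyz2, so reads may have been assigned to either. The ratio of Lyz2 to Lyz1 counts in colon was 29.9 (mouse 1), 13.3 (mouse 2) and 15.3 (mouse 4) under the label UC and 26.8 (mouse 7), 11.0 (mouse 8) and 51.9 (mouse 9) under the label control. In blood it was higher in each library, with a range from 91.7 (mouse 9) to 136.5 (mouse 2). The part of Lyz2 reads in the Lyz1 counts was not tested.

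**Figure D5:**
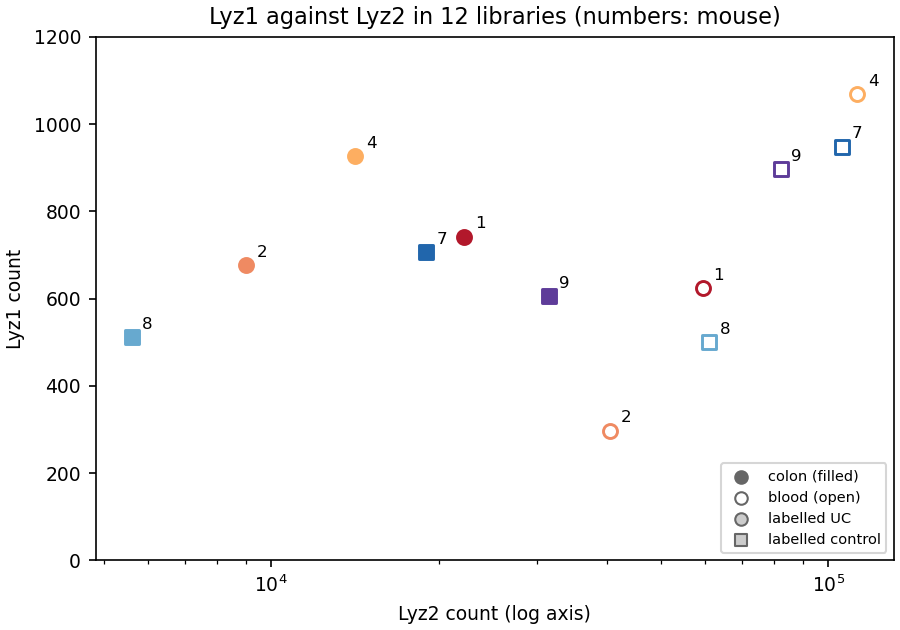
Lyz1 count against Lyz2 count (log axis) in the 12 libraries, with filled symbols for colon, open symbols for blood, circles for the label UC, squares for the label control, and mouse numbers beside the points. In blood the ratio of Lyz2 to Lyz1 lies between 91.7 and 136.5, and in colon between 11.0 and 51.9.

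In blood, 7 of the 9 genes, the 5 Reg genes, Ang4 and Itln1, had no count in any of the 6 libraries, including that of mouse 1, where Reg3b was so abundant in colon. A count of 0 allows up to 3 counts per library. Lypd8 had 104 counts in mouse 2, labelled UC, and 151 in mouse 9, labelled control, and none in the other 4 blood libraries. Some other colon epithelial genes were also highest in this pair of libraries. Krt8 had 50 and 88 counts there and at most 8 in the other 4, and Sprr2a2 had 76 and 72 counts there and none elsewhere. Krt19 had 32 and 58 there and at most 6 elsewhere, and Dmbt1 had 108 and 170 there and at most 17 elsewhere. Fcgbp, a goblet cell marker, had 91 and 136 there and none elsewhere. Some epithelial markers that were counted in each of the 6 blood libraries were not. Epcam was highest in mouse 4 (59 counts) and lowest in mouse 9 (11), and Cdh1 was highest in mouse 7 (122) and lowest in mouse 2 (32). Lgals4 ranged from 73 to 124 with mouse 1 highest, and Car1, an absorptive colonocyte marker, was lowest in mouse 2 (184) and highest in mouse 9 (367). Whether colon RNA or another source gave the Lypd8 counts in blood was not tested.

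Lyz1 was counted in each blood library, at 657 (mouse 1), 447 (mouse 2) and 874 (mouse 4) normalized counts under the label UC and 726 (mouse 7), 575 (mouse 8) and 741 (mouse 9) under the label control, so that the labelled groups overlapped. It was the one gene of the 9 that could be tested in blood, and its log2FC was -0.05 (SE 0.283, 95% interval -0.70 to 0.61, edgeR adjusted p 0.9998). In blood 0% of the 16759 genes tested were SDE with edgeR (241 had an unadjusted p under 0.05, and DESeq2 called 6), and the labelled groups were apart for 6.50%. The effect of the UC label was then compared between tissues as an interaction over the 12 libraries. For Lyz1 the difference of log2FC was 0.0012 (SE 0.412, interval -0.91 to 0.91), and for Lypd8 it was -0.30 (SE 2.41), a value that rests on the counts of 2 blood libraries. Neither passed an adjusted p of 0.05 (edgeR adjusted p 0.99999 for both), where 0.00430% of the 23258 genes tested did. The other 7 genes, without counts in blood, were not compared.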

How the data were processed

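The authors depleted ribosomal RNA (and globin RNA in blood), filtered the reads, aligned them to GRCm38 (STAR) and estimated expression in StringTie 1.3.4c on the Ensembl annotation with default options, which set no strand. The deposited counts came from transcript coverage. The deposited normalized counts, a signal scale, are the authors' counts over a library factor (0.791 to 1.21 in colon, 0.664 to 1.31 in blood), set for each tissue separately, and were compared within a tissue. The 12 libraries held 0 pairs with identical values.

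The 9 genes and the gene lists were chosen with earlier results of these data known. edgeR 4.0.16 in R 4.3.3 (TMM, filterByExpr, glmQLFit, glmQLFTest) was run on each tissue alone, with Benjamini-Hochberg adjustment over the genes tested. The SE was taken as log2FC over the root of F, and 95% intervals from the t distribution. Alternatives were RLE factors, library size only, other filters, DESeq2 1.42.0, limma-voom (limma 3.58.1), a stricter threshold, each mouse left out, and a replicate block of mouse numbers for the interaction. The steps were also run on simulated data in which all genes shared the same dispersion. That setting lacks the wide spread of Reg3b and Reg3g and does not bear on their results. Both tissues came from the same 6 mice per the study's methods, and deviations of same-numbered libraries from group means correlated with r from 0.0828 to 0.274 over 15647 genes, above 0.1 in 4 of 6 pairs. In GENCODE vM21 none of the 9 genes overlapped another gene. The named genes were the 9, the 3 of highest mean colon level in each list, called list genes, and the 3 nearest in pattern. Named after their values were seen were Il22, Il22ra1, Socs3, Il1b, Il6, Il17f, Pla2g2a, Retnlb as a list gene, Saa3, Mptx1, Sis, Apoa4, Fabp1, Epcam and Cdh1. Itlnb and Lypd8l were not matched.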

Additional observations from a re-analysis of the deposited data

How the results depend on the processing

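Each of the 7 colon directions turned in at least 1 fit without 1 mouse. With 1 mouse left out, the colon log2FC ran from -13.24 to 6.91 for Reg3b, from -8.26 to 5.49 for Reg3g, from -0.84 to 1.00 for Reg4, from -0.27 to 0.068 for Lypd8, from -1.42 to 2.54 for Ang4, from -0.47 to 0.73 for Itln1 and from -0.19 to 0.19 for Lyz1. In blood Lyz1 ran from -0.31 to 0.17, and the tissue difference ran from -9.69 to 9.56 for Lypd8 and from -0.22 to 0.18 for Lyz1. With limma-voom the colon log2FC of Reg3b was -4.15, of Reg3g -0.011, of Reg4 0.19 and of Lyz1 0.012, and the tissue difference of Lypd8 was 0.091. With library size only that difference was 0.31, and with a mean of at least 10 counts that of Lyz1 was -0.0017. The cause was not tested. DESeq2 gave no adjusted p for Reg3b and Reg3g in colon.

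None of the 9 genes was called in any comparison where it was tested, under any alternative run, though DESeq2 could not call Reg3b and Reg3g in colon. Each blood fit tested only 1 or 2 of the 9, and Reg3a and Reg1 entered only some of the colon fits. The 7 genes without counts in blood had no tissue difference to test. Over all genes, 1 was called in colon, against 6 by DESeq2 and 0 by limma-voom, 0 under a limit of 0.01 on the adjusted p, and 0 in each fit without 1 mouse. In blood 0 were called, against 1 under library size only, 6 by DESeq2, and 0 to 3 with 1 mouse left out. For the tissue difference 1 was called, against 19 by DESeq2, 0 with a replicate block and 1 to 2 with 1 mouse left out. Under this replicate block, in which mouse numbers pair colon and blood, the tissue difference was 0.07 for Lyz1 and -0.01 for Lypd8, and neither passed the threshold. With the longest transcript as the length, the levels per kilobase moved by less than the spread between libraries.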
